A study of Mus musculus with 2 samples.

Results

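Chemokines are small secreted proteins that direct the movement of cells, and their receptors are G protein-coupled receptors that signal mainly through inhibitory G proteins. The families are named for the spacing of cysteines near the N terminus of the ligand (CC, CXC, CX3C and C). Inflammatory chemokines are made on demand, usually through NF-kB or interferon signalling, whereas homeostatic ones such as Cxcl12 are made steadily and place stem cells and lymphocytes in their niches. The genes described here have a platform gene symbol that begins with a chemokine ligand or receptor stem (Ccl, Cxcl, Xcl, Cx3cl, Ccr, Cxcr, Xcr, Cx3cr). A number follows the stem, after an added l in Ccrl2. Only probe sets that name 1 gene were used. The genes were 50 of the 17097 named by such probe sets, 34 ligands and 16 receptors, on 74 of the table's 45118 probe sets. A usable value on both arrays was left for 48 of them, 32 ligands and 16 receptors, of 16563 genes in all.

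The 2 samples were mouse embryonic stem (ES) cells grown without feeder cells in serum with leukaemia inhibitory factor. One culture carried a retrovirus with a control RNA sequence and the other a retrovirus with a short hairpin against H2A.B, a short variant of histone H2A. Both constructs were in a pMSCV-neo vector under a U6 promoter, and both cultures were kept in G418 for 2 to 4 weeks, so the control had the same vector and selection. The knockdown sample is numbered 1 in its title, and the labels do not say whether that number is a hairpin, a clone or a culture. From each culture 2 µg of RNA was labelled for an Affymetrix array, and each group had 1 array. No difference below therefore has a replicate error or a test, and all values describe these 2 arrays.

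The cells' label was checked against ES cell markers. All 9 measured markers of the 10 listed were above 10 on both arrays, with Pou5f1 at 12.65 on the control and 12.64 on the knockdown array. Probe sets naming the H2A.B genes numbered 0, so the depletion itself could not be read from these arrays. The median of the usable values was 5.64 on the control and 5.59 on the knockdown array (log2 intensity, as in all that follows unless stated). A value was called past the expression filter when the mean of both arrays reached 6.73, the median over genes. The spread of the differences depended on the place of a probe set in the deposited table, which falls into a first, a middle and a last section at rows 18185 and 33642. Over all genes, the absolute difference had a median of 0.04 in the first of these, 0.22 in the middle one and 0.23 in the last one. The section is therefore given for each chemokine gene past 1.5-fold and beside many of the other larger differences.

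Most chemokine genes were at nearly the same intensity on both arrays. The difference, knockdown minus control, was within 0.1 for 35 of the 48 genes (72.9%, against 57.8% of all genes) and within 0.5 for 42 (87.5%, against 88.9% of all genes). Its median was -0.0012, and over all 16563 genes it was -0.0056. Of the 48 genes 3 were at least 2-fold higher on the knockdown array, where 1.13% of all genes were, and 0 were at least 2-fold lower, where 2.91% of all genes were. The 3 genes were the ligands Ccl24 and Cxcl12 and the receptor Ccr9. The genes were grouped here with these differences already known, so the counts are a description. The first section supplied 38 of the genes, the middle section 3 and the last section 7. Of the 38 in the first section 34 (89.5%) were within 0.1, against 83.8% of all genes there. Only 4 chemokine genes passed the expression filter: Ccl24, Ccl25, Cx3cl1 and Cxcl16. Ccl24 passed through its knockdown value alone, since its control value of 6.17 was below the limit. For the other 44 the control values ran from 2.77 to 6.57. Signal over background was not measured, so a low value does not show how much of the transcript was present.

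**Figure D1:**
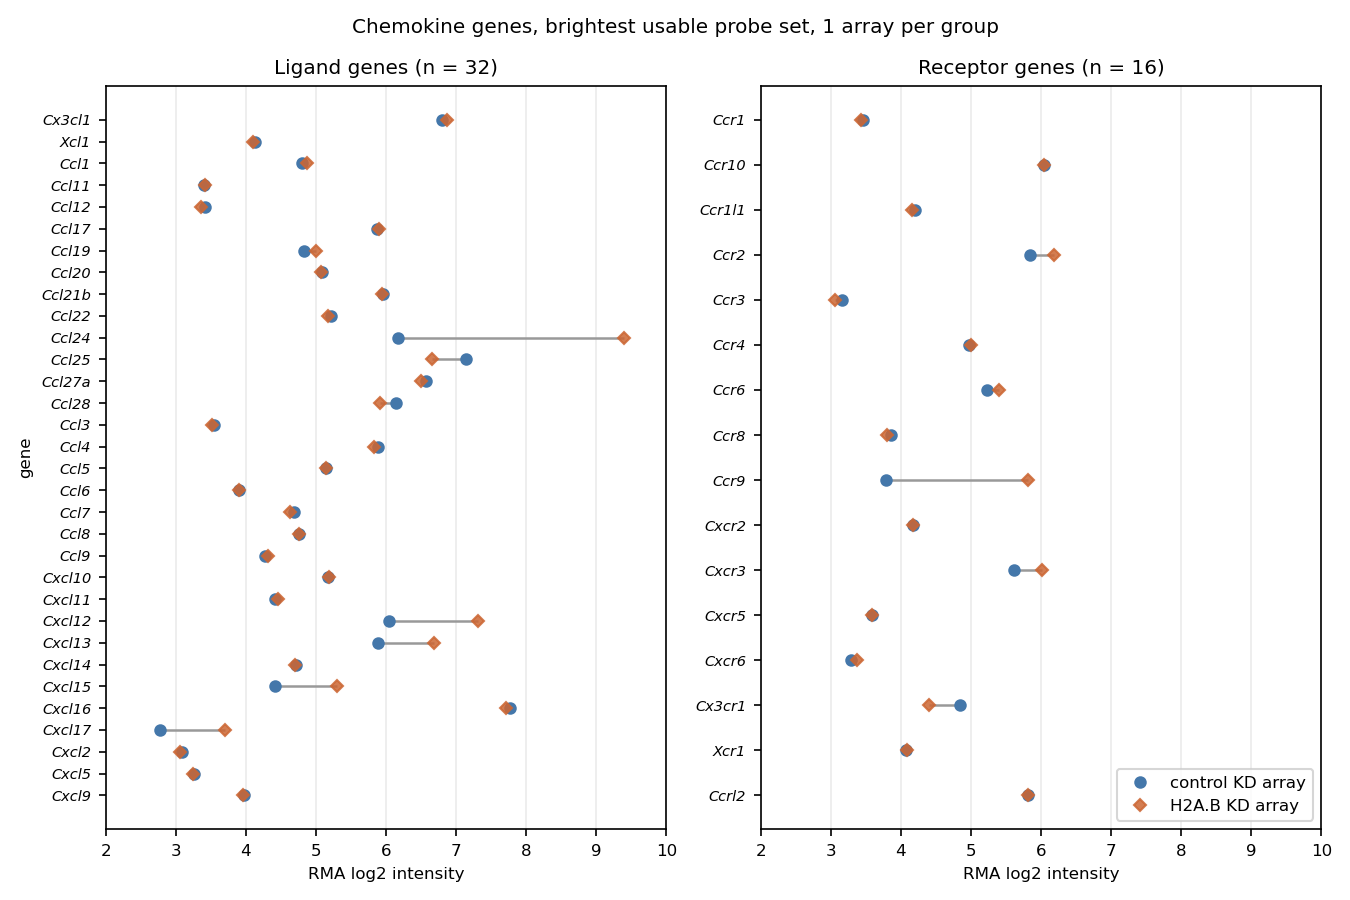
RMA log2 intensity of each chemokine gene on the control (blue circle) and the H2A.B knockdown array (orange diamond), ligands at left and receptors at right, with 1 array per group and hence no error bars. The points of most genes overlap, and the long lines are those of Ccl24 (6.17 to 9.39), Ccr9 (3.79 to 5.82) and Cxcl12 (6.05 to 7.31).

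Ccl24, or eotaxin-2, is a CC chemokine that attracts eosinophils through the receptor Ccr3 and is typically made by macrophages and epithelia under type 2 cytokines. Its single probe set had 6.17 on the control and 9.39 on the knockdown array. The knockdown value was 9.34-fold higher, a log2 difference of 3.22, which was the largest of the 3765 genes read from the last section of the table, where 2.42% were at least 2-fold higher. Over all 16563 genes 5 had a larger difference. No second probe set for Ccl24 was in the table, so this value has no technical repeat.

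Other parts of the eotaxin system were near the same level on both arrays. The receptor Ccr3 had 3.16 on the control and 3.07 on the knockdown array. Ccl11, eotaxin-1, which uses the same receptor, had 3.40 and 3.42. The type 2 cytokine genes Il4 (3.88 and 3.87) and Il13 (4.62 and 4.63) also differed by less than 0.1. Ccr3, Ccl11 and Il13 were read from the narrow first section, and Il4 from the last, as was Ccl24. Of 10 eosinophil and other granulocyte markers 9 were measured. Their intensities ran from 2.96 to 4.85 on the control and from 2.85 to 4.91 on the knockdown array. Their differences ran from -0.21 (Cpa3) to 0.41 (S100a9), both in the middle section. Of these 9, 0 were 2-fold higher (1.13% of all genes) or 2-fold lower (2.91% of all genes). Among these, the eosinophil peroxidase gene Epx had 2.96 and 2.85, Prg2, the eosinophil major basic protein gene, 3.72 and 3.71, and Siglecf 3.52 and 3.59. The linear intensities of these markers summed to 133 on the control and 136 on the knockdown array.

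Ccr9 is the receptor for Ccl25 and guides T cell precursors in the thymus and lymphocytes to the small intestine. Its brightest probe set had 3.79 on the control and 5.82 on the knockdown array, 4.08-fold higher (2.03). The other 3 probe sets had 3.14 and 5.19, 3.23 and 5.26, and 3.70 and 5.66, differences of 2.04, 2.03 and 1.96. On all 4 the knockdown value was therefore about the same step above the control value, and the SD of the 4 differences was 0.04. Of the probe sets 3 lie in the first section and 1 in the middle section. In the first section 0.0958% of genes were at least 2-fold higher, and 2 of its 9398 genes had a larger difference than Ccr9. Among the 987 genes with at least 4 usable probe sets, 7 (0.709%) were 2-fold higher on every one. The probe sets target transcripts of 1 gene and were hybridised to the same 2 arrays, so they are no replicates of the knockdown. All control values of Ccr9 were below that array's median, and the knockdown value of the brightest probe set lay just above the median of its own array over all probe sets.

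The ligand of Ccr9 did not give a single direction. Ccl25, made in thymus and small intestine, had 7.14 on the control and 6.66 on the knockdown array on its brightest probe set (-0.48, first section). Its other probe set had 6.26 and 7.05 (0.79, last section). With the median over both probe sets the difference was 0.16, so the sign for Ccl25 depends on the probe set.

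Cxcl12, or SDF-1, is the homeostatic CXC ligand that retains blood stem cells in bone marrow and guides germ cell migration; it binds Cxcr4 and the scavenging receptor Ackr3. It was higher on the knockdown array on all 3 of its probe sets. The brightest, in the middle section, had 6.05 on the control and 7.31 on the knockdown array, 2.40-fold higher (1.26); 2.56% of genes read from that section were at least 2-fold higher. The second, also in the middle section, had 5.81 and 6.90 (1.09), and the third, in the first section, 5.70 and 6.71 (1.01). The SD of the 3 differences was 0.13, and the lowest of them was just past the 2-fold rule. Among the 2698 genes with at least 3 usable probe sets, 19 (0.704%) were 2-fold higher on all of them, and Ccr9 and Cxcl12 were both among those 19. In the first section, where the third probe set lies, 0.325% of single-gene probe sets were 2-fold higher. Ackr3, an atypical receptor that takes up Cxcl12 without G protein signalling, had 8.37 on the control and 8.35 on the knockdown array; Cxcr4 was not analysed here.

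**Figure D2:**
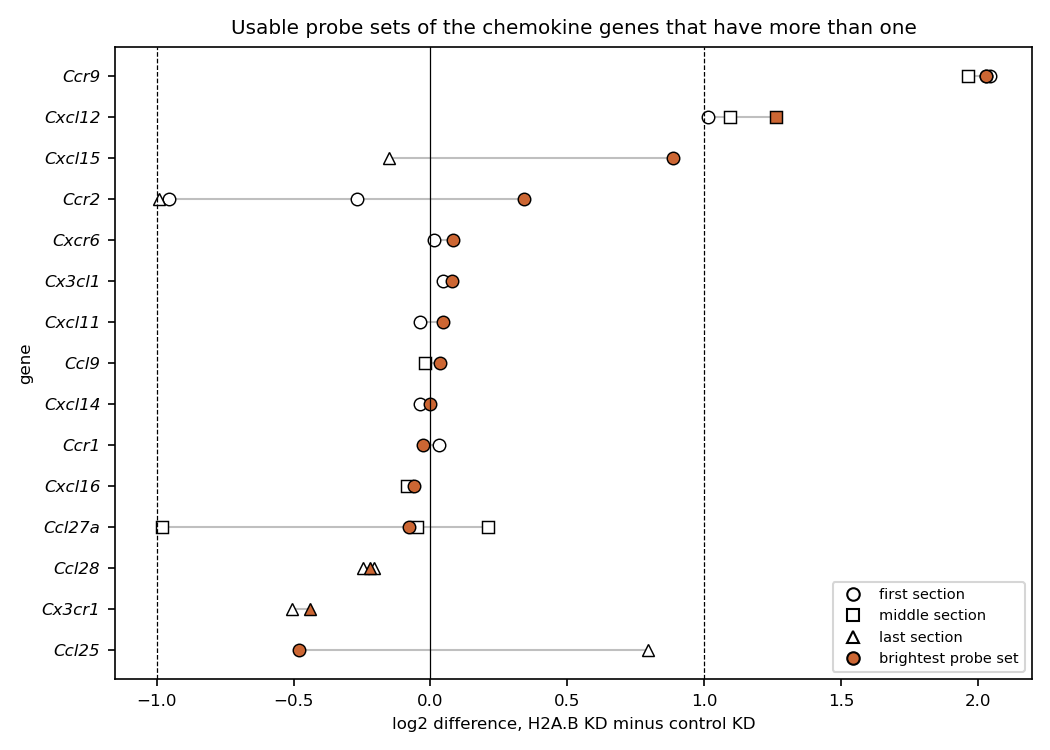
Log2 difference (H2A.B knockdown minus control) of each usable probe set of the 15 chemokine genes that have more than 1, with the symbol giving the section of the table and the fill marking the brightest probe set; dashed lines mark 2-fold. The 4 Ccr9 probe sets sit together near 2 and the 3 Cxcl12 probe sets at or beyond 1, while those of Ccl25, Ccl27a, Ccr2 and Cxcl15 are spread widely on both sides of 0.

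The DNA just before the start of Ccr9 and Cxcl12 is shown because these genes were at least 2-fold higher on every one of several probe sets, and because it lets their CpG content be compared. Each run is the 250 bases before the RefSeq start in build GRCm38.p6, on the plus strand, with CG dinucleotides in capitals; the windows are chr9:123766961-123767210 for Ccr9 and chr6:117168285-117168534 for Cxcl12. RefSeq windows were matched for 38 of the 50 genes, and there was none for Ccl24.
Ccr9: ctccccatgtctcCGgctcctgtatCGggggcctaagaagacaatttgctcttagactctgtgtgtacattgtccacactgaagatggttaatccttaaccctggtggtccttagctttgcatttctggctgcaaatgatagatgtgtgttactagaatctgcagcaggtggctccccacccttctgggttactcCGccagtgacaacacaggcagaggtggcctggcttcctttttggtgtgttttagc
Cxcl12: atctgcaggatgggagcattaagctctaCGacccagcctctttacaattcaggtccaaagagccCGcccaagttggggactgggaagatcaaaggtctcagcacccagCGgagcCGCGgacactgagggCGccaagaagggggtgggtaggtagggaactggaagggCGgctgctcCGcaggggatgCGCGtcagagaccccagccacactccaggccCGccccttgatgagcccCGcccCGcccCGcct

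The windows differed in CpG content. That of Ccr9 held 3 CG dinucleotides and that of Cxcl12 held 14, against a median of 6 over 32851 windows of all genes and of 3 over the 44 windows of the 38 chemokine genes, some of which have several starts. The GC box GGGCGG, searched on both strands with overlapping matches counted, occurred 5 times in the Cxcl12 window and 0 times in that of Ccr9; 32.7% of all windows and 13.6% of chemokine windows held it at least once. The TATA motif TATAAA, searched on both strands, occurred in neither window, and was held by 22.7% of chemokine windows and 12.4% of all. The NF-kB consensus, searched on both strands, was likewise held by 22.7% of chemokine windows against 7.25% of all, and by neither of these windows. Chemokine genes with that consensus included Cxcl1, Cxcl2, Cxcl10 and Ccl20. Of these, Cxcl2 (3.08 on the control and 3.05 on the knockdown array), Cxcl10 (5.17 and 5.18) and Ccl20 (5.08 and 5.07) differed by less than 0.1. Over the 9 usable of the 10 chemokine genes with the consensus the differences ran from -0.09 to 0.17. These matches describe the letters only.

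The other CC ligands were close on both arrays. Of the 19 CC ligand genes 1, Ccl24, reached 2-fold higher, as did 1.13% of all genes, and 15 (78.9%) were within 0.1. Within 0.1 were 57.8% of all genes and 83.8% of those in the first section. Of the 19, 13 lay below 0 and 6 above. The monocyte and T cell attractants clustered on chromosome 11 were all within 0.1, and all were read from the narrow first section. Ccl7, Ccl8, Ccl11, Ccl12 and Ccl1, neighbours in 1 cluster, differed by between -0.06 and 0.07. Ccl5 (RANTES), Ccl9, Ccl6, Ccl3 and Ccl4, in a second cluster, differed by between -0.06 and 0.04. Ccl2, which draws monocytes and opens the first cluster, had 4.91 on the control array and no usable knockdown value.

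The CC ligands of other chromosomes showed slightly more spread. On chromosome 8, the Ccr4 ligands Ccl17 (5.87 and 5.90) and Ccl22 (5.22 and 5.18) and the membrane-bound Cx3cl1, fractalkine, between them (6.80 and 6.88) stayed within 0.1. Cx3cl1 had 0.04 on its dimmer probe set. Ccl28, a mucosal ligand of Ccr10, was lower on all 3 probe sets, with 6.14 and 5.92 on the brightest (-0.22) and differences of -0.24 and -0.21 on the others. All 3 lie in the last section, where a difference of this size is near the median of 0.23. Ccl27a, the skin ligand of Ccr10, had 6.57 on the control array and a difference of -0.08 on its brightest probe set. Its dimmer probe sets, all in the middle section, differed by -0.98, 0.21 and -0.05, so that gene has no single value. Ccl27b, a close copy, may share its probes. Ccl21b (5.96 and 5.94) was read from a probe set with an s suffix, which marks probes shared by several transcripts, and the near-identical Ccl21 copies cannot be told apart. Ccl19, a ligand of lymph node homing, differed by 0.17 in the middle section.

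Among the CXC ligands 1 of 11 genes with a usable value, Cxcl12, reached 2-fold, and 3 more lay between 1.5-fold and 2-fold higher. Those 3, the only other chemokine genes past 1.5-fold, were Cxcl17, Cxcl15 and Cxcl13. Over all genes 2.98% were at least 1.5-fold higher, and 6.24% were at least 1.5-fold lower, as was none of the 48 chemokine genes. Cxcl17, a mucosal chemokine, had 2.77 on the control and 3.70 on the knockdown array (0.93) on its single probe set, in the last section. Both values are far below the array medians.

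Cxcl15, lungkine, had 4.42 on the control and 5.31 on the knockdown array on a first-section probe set (0.89). Its other probe set, in the last section, had 4.13 and 3.97 (-0.15), so the higher value stood on 1 of 2. Cxcl13, the B cell attractant that binds Cxcr5, had 5.89 and 6.69 (0.80) on a middle-section probe set. Its other probe set read 9.81 on the control array, but its knockdown value belongs to the unusable series, so the usable value comes from the dimmer one.

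The inflammatory CXC ligands were level. Cxcl2 and Cxcl5, neutrophil attractants acting on Cxcr2, differed by -0.03 and -0.01. The interferon-induced Cxcr3 ligands Cxcl9, Cxcl10 and Cxcl11 differed by -0.01, 0.02 and 0.05, with -0.04 on the dimmer Cxcl11 probe set. Cxcl11 is listed as a transcribed pseudogene in the gene table of the C57BL/6J assembly. Cxcl1, another neutrophil attractant, had 8.32 on the control array and no usable knockdown value. Cxcl16, a membrane-bound ligand of Cxcr6, had 7.77 on the control and 7.71 on the knockdown array, with -0.09 on its dimmer probe set. Cxcl14 had 4.71 and 4.71, with -0.04 on its dimmer probe set. The lymphocyte attractant Xcl1 differed by -0.03.

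Of the 16 receptor genes 1, Ccr9, reached 2-fold higher, as did 1.13% of all genes, and 11 (68.75%) were within 0.1. Within 0.1 were 57.8% of all genes and 83.8% of those in the first section, from which all 11 were read. Ccr9 lies next to a row of receptor genes on chromosome 9, and those differed far less. Cxcr6 had 3.29 on the control and 3.37 on the knockdown array, Xcr1 4.07 and 4.09, Ccr1 3.46 and 3.43, and Ccr1l1 4.20 and 4.16. The dimmer probe sets of Cxcr6 and Ccr1 differed by 0.01 and 0.03. Ccr2, the monocyte receptor for Ccl2, had 5.84 and 6.18 on its brightest probe set (0.34, first section). Its other probe sets differed by -0.27 and -0.95 in the first section and by -0.99 in the last. The sign for Ccr2 therefore depends on the probe set.

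The remaining receptors gave small differences. Cx3cr1, the fractalkine receptor of monocytes and microglia, was lower on both of its last-section probe sets, with 4.84 and 4.40 on the brighter (-0.44) and -0.51 on the dimmer. Cxcr3, the receptor for the interferon-induced ligands, had 5.61 and 6.02 (0.40) in the last section on a single probe set. Ccr6 had 5.23 and 5.39 (0.17), also in the last section. Ccr10, Ccr4, Ccr8, Cxcr2 and Cxcr5 and the non-signalling Ccrl2, all in the first section, were within 0.05. Receptors of the 2-fold higher ligands differed by -0.09 for Ccr3 and -0.02 for Ackr3, while Ccr9 was higher without a single direction in its ligand.

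**Figure D3:**
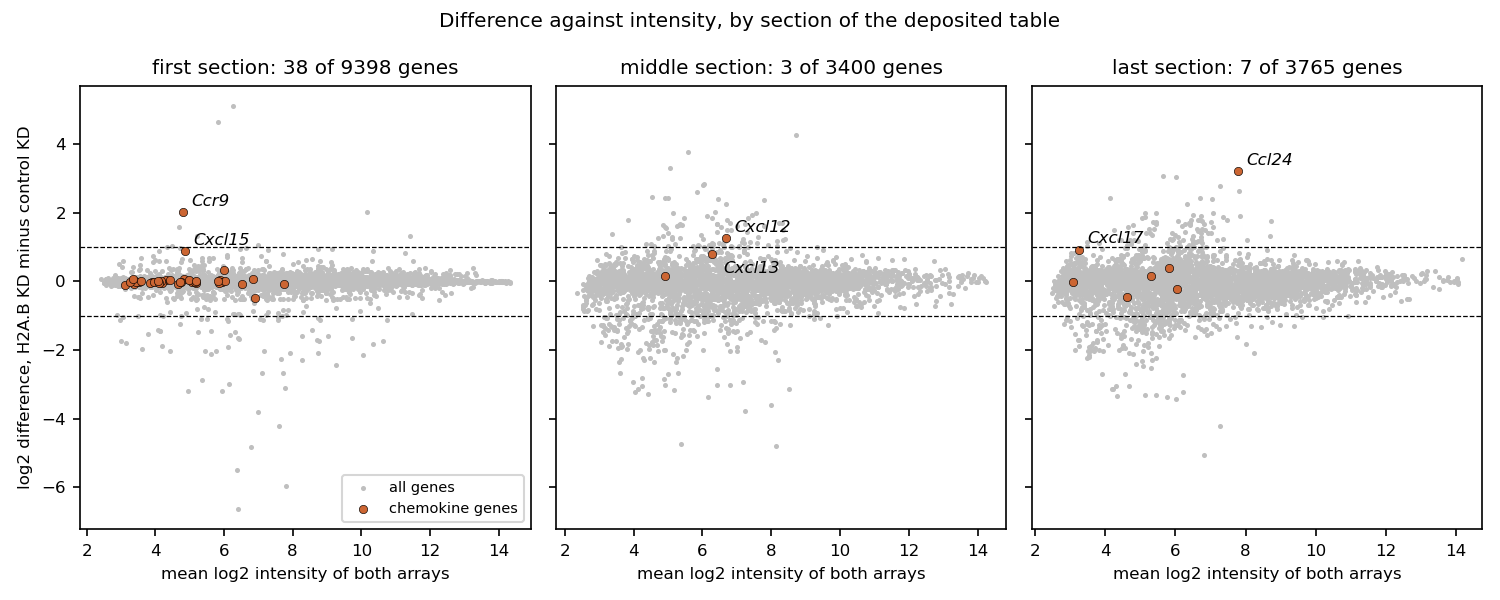
Log2 difference (H2A.B knockdown minus control) against mean log2 intensity for all usable genes (grey) and chemokine genes (orange), split by section of the deposited table; dashed lines mark 2-fold. The first section is narrow, and Ccr9 and Cxcl15 stand above its band, while Ccl24 is the highest point of the last section. In the middle section 50 of 3400 genes had a larger difference than Cxcl12, and 122 had a larger one than Cxcl13.

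The measured genes around the 3 higher members did not share their difference, though the direct neighbours were measured for Ccr9 only. Of the 8 nearest protein-coding genes of Ccr9, all were measured and 0 differed by 2-fold, the range being -0.07 to 0.08. Lztfl1, a gene of ciliary transport just before Ccr9, had 8.47 on the control and 8.49 on the knockdown array, and Fyco1, an autophagosome transport gene just after it, 6.71 and 6.71. Of the 8 around Ccl24 on chromosome 5, 4 were measured, and these differed by between 0.01 and 0.12. Its direct neighbours Ccl26 and Rhbdd2 had no usable value. Of the 8 around Cxcl12 on chromosome 6, 4 were measured, and these differed by between -0.37 and -0.01. The direct neighbours of Cxcl12, Tmem72 and Zfp637, had no usable value.

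**Figure D4:**
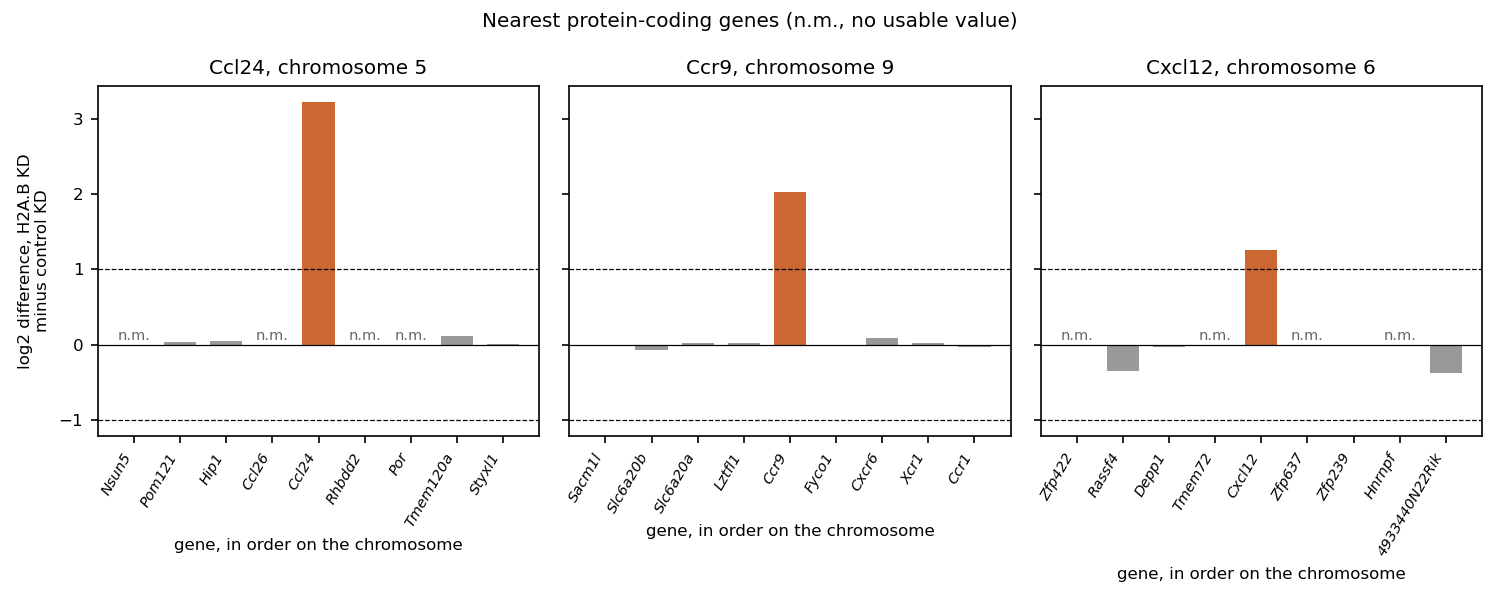
Log2 difference (H2A.B knockdown minus control) of Ccl24, Ccr9 and Cxcl12 (orange) and of the 4 nearest protein-coding genes on each side (grey), in chromosome order; n.m. marks genes without a usable value and dashed lines 2-fold. The measured neighbours lie between -0.37 and 0.12.

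Atypical receptors and chemokine-like genes were also read, all outside the naming rule except Ccrl2, which is counted among the receptors above. Of the 9 measured genes of that list of 10, 0 were 2-fold higher (1.13% of all genes) and 1 was 2-fold lower (2.91% of all genes). The median was -0.02. The lower one was Cmklr1, the receptor for chemerin, with 6.02 on the control and 4.82 on the knockdown array (-1.20, last section); its dimmer probe set, in the first section, had 4.25 and 3.16 (-1.09). Ackr4, which scavenges Ccl19, Ccl21 and Ccl25, had 7.04 and 6.79 (-0.24). The platelet chemokine Pf4 had 4.68 and 4.44 in the middle section. Cmtm3, a chemokine-like factor family gene, had 6.33 and 6.12.

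The genes that carry chemokine receptor signals were centred on 0. Of 38 measured genes of the list of 44, 19 lay above and 19 below 0 (median -0.0064). Of these 38, 0 were 2-fold higher (1.13% of all genes) and 1 was 2-fold lower (2.91% of all genes). That one was Grk5, a kinase that desensitises activated receptors, with 2.38 on the knockdown array, 4.66-fold below the control (-2.22, last section) and -1.89 on its other probe set in the middle section. The inhibitory G protein genes Gnai1 and Gnai2 differed by -0.76 and -0.56 on their brightest probe sets, while Gnai3 had 11.12 on the control and 11.13 on the knockdown array (0.01, and 0.04 on its other probe set). For Gnai1, whose brightest probe set lies in the last section, the 3 probe sets ran from -0.76 to 0.0038. Gnai2 had a single dim one, in the middle section. The arrestin gene Arrb2 differed by -0.50 and by -0.05 on its other probe set.

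The inducers of chemokine genes were likewise near 0. Of 32 measured genes of 35, 18 lay above and 14 below 0 (median 0.01). Of these 32, 0 were 2-fold higher (1.13% of all genes) or 2-fold lower (2.91% of all genes). The largest differences were those of Ikbkg, the regulatory subunit of the NF-kB activating kinase (-0.86, from -0.93 to 0.42 over 6 probe sets), the NF-kB inhibitor Nfkbie (-0.77, and 0.04 on its other probe set), the cytokine gene Il1b (-0.59) and the adaptor gene Ticam1 (0.45). All 4 were read from the last section.

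Genes that cut, modify or display chemokines had 14 measured of 16, with 7 above and 7 below 0 (median 0.0023). On the brightest probe sets 0 were 2-fold higher (1.13% of all genes) or 2-fold lower (2.91%). Adam17 differed by -0.30 on its brightest probe set and by 0.04 on another. Its dimmest had 4.24 on the control and 5.68 on the knockdown array (1.43). All 3 Adam17 probe sets lie in the first section. The syndecan gene Sdc4, which encodes a heparan sulphate carrier, differed by 0.58 in the middle section (-0.35 on its other probe set). Ext2 and Hs2st1, enzymes of heparan sulphate synthesis, differed by -0.49 and -0.38 in the last section. The 3 probe sets of Hs2st1 ran from -0.38 to 0.06. The matrix protease gene Mmp2 differed by -0.38 on a first-section probe set.

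Since chemokines and their receptors mark immune cells and fibroblasts, markers of those cells were read beside them. Of 10 monocyte and macrophage markers 1 was 2-fold higher (1.13% of all genes) and 1 was 2-fold lower (2.91% of all genes). The higher one was Fcgr1, the high-affinity IgG receptor, with 5.35 on the control and 7.39 on the knockdown array (2.04, middle section). Its other probe set differed by 1.92 in the first section, where 0.325% of single-gene probe sets were 2-fold higher. The lower one was the lysozyme gene Lyz2, with 4.06 and 2.97 in the middle section. Ptprc, Csf1r, Adgre1 and Itgam differed by -0.44, 0.01, 0.22 and -0.01, and Cd14, Mrc1 and C1qa by -0.05, -0.11 and 0.06. Cd68, the only 1 of the 10 past the expression filter, had 8.58 on the control and 8.80 on the knockdown array. Of the 10 markers 5 lay above and 5 below 0 (median -0.0036). Their linear intensities summed to 724 on the control and 883 on the knockdown array. The brighter genes weigh most in such a sum, so it does not stand for the 10 markers as a set.

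Of the 9 measured lymphocyte markers 0 differed by 2-fold on the brightest probe set, where 1.13% of all genes were 2-fold higher and 2.91% lower. Of these 9, 2 lay above and 7 below 0 (median -0.03). Their linear intensities summed to 412 on the control and 383 on the knockdown array. The 3 probe sets of Cd8a ran from -1.26 to 0.24. Cd3e had 6.61 and 6.56, Cd3g 3.65 and 3.62, and Cd79a 5.48 and 5.52. The natural killer cell marker Klrb1c differed by -0.89 in the last section. Of the 10 fibroblast markers 0 differed by 2-fold, with 7 above and 3 below 0 (median 0.03). Col1a1 and Dcn had the highest differences, 0.25 and 0.26, and Lum the lowest, -0.09. The linear intensities of the fibroblast markers summed to 775 on the control and 843 on the knockdown array. In the lymphocyte and fibroblast sums, too, the brighter genes weigh most. No marker was at 0, since these intensities have no zero. The part of other cells in the values of Ccl24, Ccr9 and Cxcl12 was not tested. In such bulk RNA more cells of a type and more RNA per cell cannot be told apart.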

How the data were processed

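The authors deposited 1 table with an intensity per probe set for each of 2 arrays, summarised by RMA (per the submitters' processing notes; its version is not given in the sources used here). RMA corrects background, normalises quantiles between arrays and summarises probes. The scale is not stated; the deposited control values run from 0.801 to 14.5 and were taken as log2 intensities. In the deposited knockdown column, 616 values between rows 2054 and 4710 form a series rising in steps of 1 and 2 others exceed 20; these are of another kind, not log2 intensities, and were left out. They included 3 chemokine probe sets (those of Ccl2 and Cxcl1 and 1 of Cxcl13). Also left out were 1455 control values identical to a value up to 20 rows above, of which 0 were chemokine values. They lie in rows 18185 to 33642, the middle section.

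Of 45118 probe sets, 28898 named 1 gene in the platform annotation, 551 several and 15669 none. The brightest usable probe set, by the mean of the pair of arrays, stood for a gene. No centring, test or p-value was used: a difference is knockdown minus control, with a rule of 2-fold. Counts cover all genes with a usable value, without an expression filter, because a filter on the mean can admit a gene through the array where it is high. Chromosome order came from a gene table of GRCm38.p6, where 50 of 50 gene identifiers matched. The members and gene lists were chosen with earlier results of these data known. Genes named are members past 2-fold, the 8 brightest members, a fixed set around Cxcl12 and the eotaxins, and up to 4 members of each pathway list by size of difference. The other members are named to account for all of them, while only some of the cell type markers are named. Adam17 is named because 1 of its probe sets passed 2-fold. The steps were checked on simulated arrays. Python 3.11.15, pandas 2.3.3 and statsmodels 0.14.6 (lowess) were used. The alternatives are listed in the closing section. Precision is limited by having 1 array per group.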

Additional observations from a re-analysis of the deposited data

How the results depend on the processing

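The alternatives were the median over probe sets, plain probe sets (no s, x or a suffix), filters at the median and the 75th percentile of mean intensity, median and lowess centring, keeping the repeated control values or leaving out both members of each pair, each section alone, and a 1.5-fold rule. The count of chemokine genes at least 2-fold higher, 3 in the main setting, was 6 at 1.5-fold, 2 of 39 genes in the first section, 2 of 7 in the middle section and 1 of 10 in the last, and 3 under the centrings, the handling of repeats and the other choices of probe set. With the filter at the median it was 1 of 4 genes; that gene, Ccl24, passed the filter through its knockdown value, so this setting says nothing on stability. At the 75th percentile no chemokine gene was left, so that setting gave no value for them. The count of 2-fold lower genes was 0 in every setting that gave a value, the 1.5-fold rule included. The median over chemokine genes moved to 0.21 over 7 genes in the middle section and to 0.070 over 10 genes in the last. The median of the processing and presentation list moved to -0.38 over 3 genes in the last section. With 1 array per group no replicate could be left out. No paired analysis was possible because each group had 1 array. The sign of Ccl25 turned under the median over probe sets (0.16) and in the last section (0.79). The difference of Cxcl12 was 1.01 in the first section and 1.09 with the median over probe sets, and that of Ccr9 was 1.96 in the middle section. Intensity over background was not measured, which limits the size of every difference between dim values.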
